A study of Mus musculus with 15 samples.

Results

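The comparison described here was between ear skin of 4 *Socs3* conditional knockout (*Socs3* cKO) mice and 4 wild type mice, all 2 weeks old, and was chosen by the genotype and age on the sample labels. These 8 libraries were part of 15, which also held 10-week mice, 3 wild type and 4 *Socs3* cKO. All mice were C57BL/6, and the cKO mice lacked *Socs3* in cells that express keratin 5, the keratinocytes of the basal epidermis and the hair follicle, so *Socs3* was left intact in the other cells of the ear. The labels name keratinocytes as the source, while the study's methods describe RNA of ear samples. Values were FPKM, fragment counts that the authors scaled to gene length and to library size. The genes compared were the 13524 of 21110 with at least 1 FPKM in at least 3 of the 8 libraries. The account leaves aside hair keratins and S100 genes and describes other gene families and the other cells of the ear.

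SOCS3 is a feedback inhibitor that binds the shared cytokine receptor chain gp130 and other receptors and limits signalling through the transcription factor STAT3. Cytokines that use this route, among them IL-6, oncostatin M and leukaemia inhibitory factor, act on keratinocytes in wound healing and in inflammation. At 2 weeks of age mouse skin is in the first hair growth phase, with long follicles reaching into a thickening fat layer. The external ear also holds a cartilage plate, skeletal muscle at its base, vessels, nerves and resident immune cells. In these bulk libraries, fewer cells of a type and less RNA per cell cannot be told apart.

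*Socs3* was at 9.71, 10.2, 10.3 and 10.3 FPKM in the wild type mice and at 1.25, 9.32, 12.6 and 3.51 FPKM in the *Socs3* cKO mice. Wild type mice lay close together, and the cKO mice ranged from far below them to above them. The difference did not pass the test (log2(FC) = -1.06, SE = 0.63, adjusted p = 0.18, limma, log2 of FPKM plus 0.1). It was 0.080 with the length and GC trend removed, and FPKM summed over the gene in ear RNA includes cells in which it was not deleted. The level of *Socs3* therefore does not check the labels, and each library is called wild type or *Socs3* cKO as it was labelled.

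Some libraries stood apart. Correlations between wild type mice were 0.953 to 0.967, and those between cKO mice 0.856 to 0.966, with *Socs3* cKO 1 lowest at 0.856 to 0.899. Genes at 1 FPKM or above numbered 11698 in *Socs3* cKO 1 and 12684 to 13251 in the other 2-week libraries. The differences also followed the composition of the transcripts, as the plot of medians by guanine and cytosine (GC) content shows. Genes were put in 5 groups of equal size by GC content, and the median log2(FC) went from 0.48 in the GC-poorest to -1.08 in the GC-richest. In 5 such groups by length it went from 0.36 for the shortest to -0.44 for the longest genes. In *Socs3* cKO 1 the GC-richest genes had a median log2 difference from the wild type mean of -2.49, against -0.64 in *Socs3* cKO 4, -0.63 in *Socs3* cKO 3 and -0.55 in *Socs3* cKO 2. The part of library preparation in this trend was not tested. Codes in the sample titles differ in range between the groups, and the labels do not say what they mean. A batch that followed these codes could not be told apart from genotype. Counts with this trend removed are therefore given beside the gene groups where it moved a count by over 1.5 times.

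**Figure D1:**
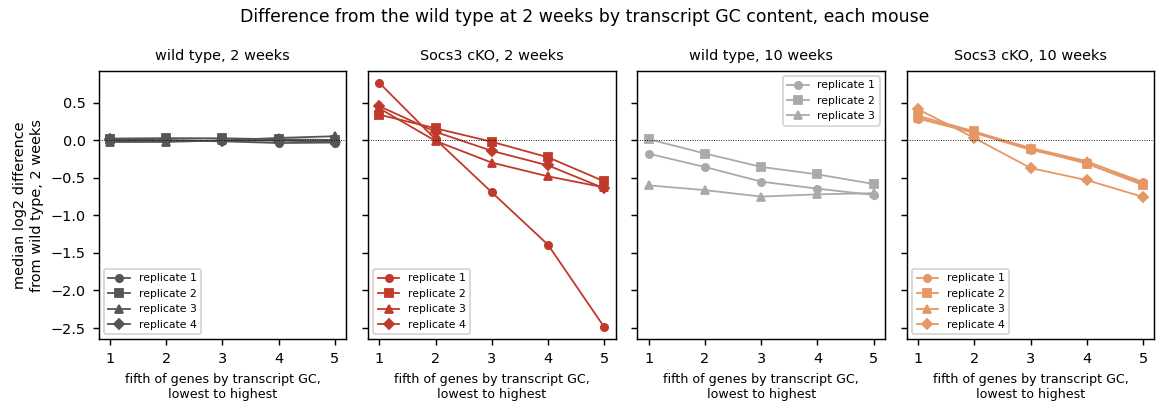
Median log2 difference from the 2-week wild type mean (vertical axis) in 5 groups of genes ordered by GC content (horizontal axis), 1 line per mouse. Wild type 2-week lines lie near 0, and the line of *Socs3* cKO 1 ends lowest, at -2.49.

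A total of 1951 genes (14.4%) were differentially expressed at adjusted p below 0.01 and an absolute log2(FC) of at least 1. Of the genes tested, 979 (7.24%) were up-regulated and 972 (7.19%) down-regulated in *Socs3* cKO mice, and these percentages are the background for every group below. The median log2(FC) over all genes was -0.21. It was -0.03 after median-of-ratios scaling and 0.06 after quantile normalization, which moved groups of genes by unequal amounts. For none of the 1951 genes did the values of the 2 genotypes overlap, which follows largely from the call itself. The share without overlap over all genes tested is not given. Remarks below that groups did not overlap therefore add no evidence to a call. Leaving out *Socs3* cKO 1 gave 2680 genes, 927 up-regulated and 1753 down-regulated (34.6% up), so the near-equal split needed that library. Leaving out *Socs3* cKO 2 gave 3348 genes, and leaving out any 1 wild type mouse, *Socs3* cKO 3 or *Socs3* cKO 4 gave 859 to 1156. Of 1636 tested genes in 71 lists of pathways, families and cell types, 448 were called, as summarised in the plot of lists.

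**Figure D2:**
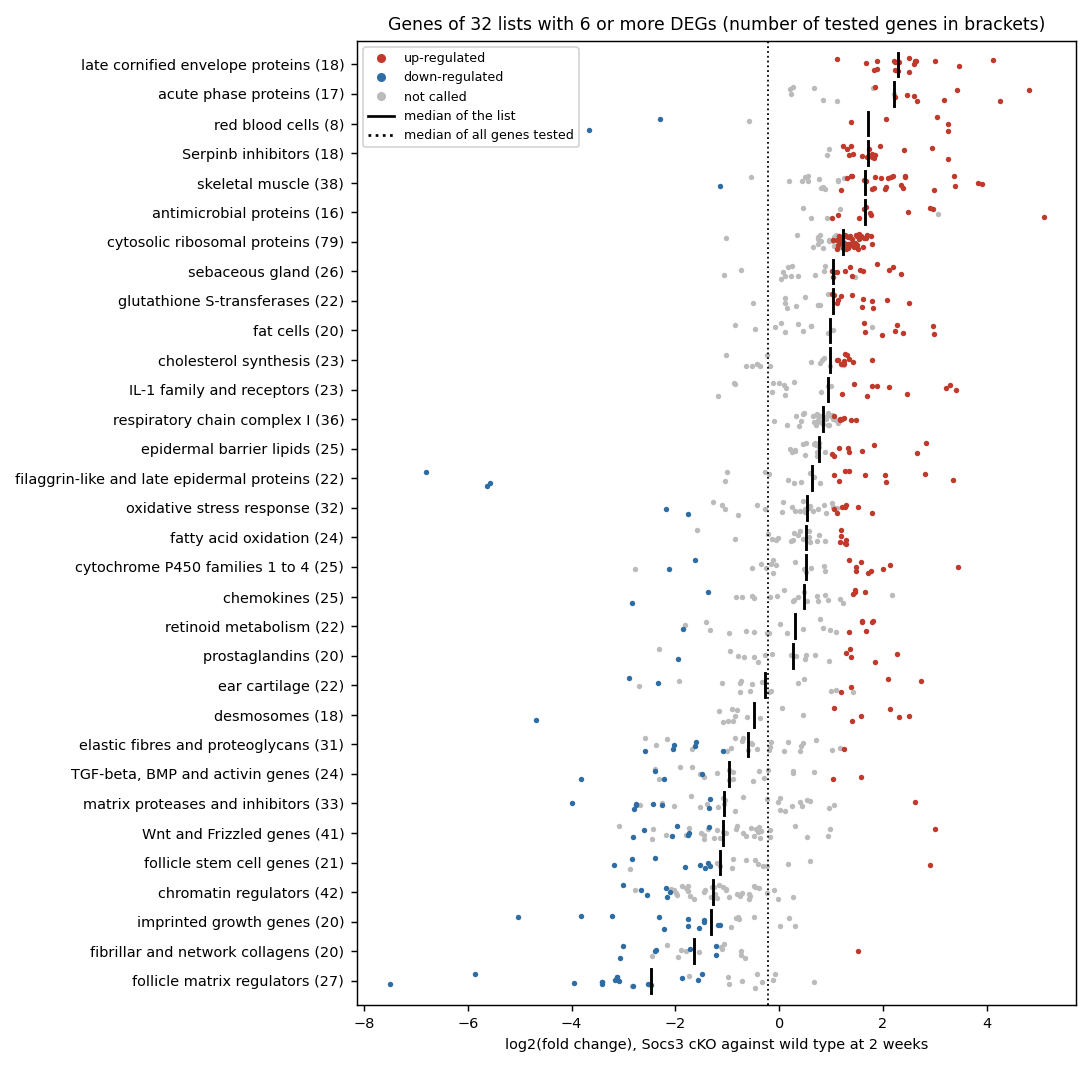
log2(FC) at 2 weeks (horizontal axis) of each tested gene (points, red up-regulated, blue down-regulated, grey not called) in the 32 lists with 6 or more called genes, with the list median (bar) and the median of all genes (dotted line). All 18 late cornified envelope genes lie to the right of 1, and the median of the 27 follicle matrix regulators is at -2.48.

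Genes of the upper epidermis rose. Late cornified envelope (Lce) proteins are cross-linked under the membrane of dying keratinocytes, and all 18 tested Lce genes were up-regulated (median log2(FC) = 2.29). With the length and GC trend removed, all 17 that had a length and GC value were called. Only 17 of the 18 reached the expression filter without *Socs3* cKO 2, 3 or 4. The remaining gene passed it through these cKO mice alone, which favours a rise. *Lce1a1* was at 221, 197, 219 and 268 FPKM in the wild type mice and at 915, 609, 980.1 and 742 FPKM in the *Socs3* cKO mice (log2(FC) = 1.83, SE = 0.19, adjusted p = 0.00031). No cKO mouse came near the wild type range. The largest differences were in the Lce3 group, with *Lce3a* (log2(FC) = 4.11), *Lce3f* (3.46) and *Lce3b* (3.0). Lce genes of 1 group are close copies that share part of their 50-base stretches, so the split of reads between members is uncertain.

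Fused S100-type proteins are large filaggrin relatives that bundle keratin or make the hardened matrix of hair roots and papillae. Of 22 tested filaggrin-like and late epidermal proteins, 9 rose and 3 fell. *Flg2* was at 58.8, 52.2, 37.4 and 63.0 FPKM in the wild type mice and at 155, 171, 162 and 163 FPKM in the *Socs3* cKO mice (log2(FC) = 1.65, SE = 0.17, adjusted p = 0.00035). Hornerin (3.36 for *Hrnr*) and the secreted protein *Slurp1* (2.80) rose more. The 3 that fell were trichohyalin, of the inner root sheath and hair medulla, its relative and cornulin, with *Tchh* (log2(FC) = -6.80), *Tchhl1* (-5.63) and *Crnn* (-5.57). Members of the same chromosomal family thus moved in both directions.

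Small proline-rich (Sprr) proteins are also cross-linked into the cornified envelope, and they split as well. *Sprr1a* was at 875, 715.8, 722 and 823 FPKM in the wild type mice and at 243, 191, 173 and 192 FPKM in the *Socs3* cKO mice (log2(FC) = -1.98, SE = 0.15, adjusted p = 9.0e-05). Every cKO mouse was below every wild type mouse. By contrast *Sprr2i* (log2(FC) = 3.98), *Sprr2g* (3.66) and *Sprr2d* (3.36) rose. The 3 up-regulated of 11 Sprr genes became 6 without *Socs3* cKO 1, 1 without *Socs3* cKO 2, 1 without *Socs3* cKO 3, 1 without *Socs3* cKO 4 and 1 without any 1 of the 4 wild type mice, and 1 with the length and GC trend removed. Without *Socs3* cKO 1, 2 Sprr genes were down-regulated, as were 2 with the length and GC trend removed. Only 8 of the 11 reached the expression filter without *Socs3* cKO 2, 3 or 4, so counts without these mice cover fewer genes. The rest passed the filter through these cKO mice alone, which favours a rise among them. All 11 reached it without *Socs3* cKO 1 or any 1 wild type mouse.

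Desmosomes join keratinocytes through the cadherins desmoglein and desmocollin, and their composition differs between layers and the hair. Of 18 desmosome genes 6 rose and 1 fell, with a median of -0.49. *Dsc1* was at 24, 19.7, 12.3 and 23.4 FPKM in the wild type mice and at 93.2, 78.7, 95.4 and 118 FPKM in the *Socs3* cKO mice (log2(FC) = 2.31, SE = 0.23, adjusted p = 0.00030). Desmocollin 1 and the desmoglein 1 genes belong to the upper layers, and *Dsg1c* (log2(FC) = 2.49), *Dsg1b* (2.14) and *Dsg1a* (1.57) rose, although these 3 genes share much sequence and their separate levels are uncertain. *Dsg4* was at 8.32, 7.08, 4.77 and 8.39 FPKM in the wild type mice and at 0.348, 0.0554, 0.236 and 0.149 FPKM in the *Socs3* cKO mice (log2(FC) = -4.68, SE = 0.35, adjusted p = 8.2e-05). Desmoglein 4 is the desmoglein of the hair shaft, and it was the only desmosome gene called in the downward direction. Without *Socs3* cKO 2, 3 desmosome genes fell, and with the length and GC trend removed 2 fell and the median was 0.59.

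Other junction genes were called at about the share of all genes tested (14.4%). Of 19 claudins and tight junction genes *Cldn2* (log2(FC) = 1.93) rose and 2 fell, *Cldn14* (log2(FC) = -3.72) among them, and the number that fell became 5 without *Socs3* cKO 2, 1 without *Socs3* cKO 3 and 1 without any 1 of the 4 wild type mice. Claudin 1 was at a log2(FC) of 0.54 and was not called. Of 11 hemidesmosome and laminin-332 genes, which anchor basal cells, *Itga2* (log2(FC) = 1.62) rose and *Itgb4* was at -1.43 without a call. The rise of *Itga2* was also called without *Socs3* cKO 1 or 2 and was not called without any other 1 mouse. Among 19 epidermal transcription factors *Trp63*, the master regulator of stratified epithelium, was at -0.03. The nuclear receptor gene *Rora* (3.13) and the Ets factor gene *Ehf* (1.04) rose, and the homeobox gene *Barx2* (-1.87) fell. The 2 up-regulated factors became 1 without *Socs3* cKO 2 or wild type 2 or 3, and the 1 down-regulated factor became 3 without *Socs3* cKO 1 and 2 without *Socs3* cKO 2. After removal of the length and GC trend 4 claudin and tight junction genes rose and 1 fell, 2 hemidesmosome genes rose and 2 factors fell.

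Serpinb proteins are intracellular serine and cysteine protease inhibitors, several of which protect keratinocytes and control shedding. Because 16 of 18 tested Serpinb genes rose together, their promoters were searched for the letters TGANTCA on both strands, of which TGACTCA and TGAGTCA are the usual AP-1 site and the others depart from it by the middle base. The window ran from 250 bases before to 50 after each gene start in RefSeq (mouse build GRCm38.p6). The letters were in the promoters of 6 of 16 Serpinb genes (37.5%), against 8.97% of 27025 genes, and of none of the 17 Lce genes. The AP-1 site itself was in 2 of the 16 Serpinb genes (12.5%), against 5.95% of all genes. A stretch for each of the 6 genes is shown to let the middle base be compared, with the 7 letters in capitals, 5′ to 3′ on the + strand, and a second match in *Serpinb11* is not shown.
Serpinb7: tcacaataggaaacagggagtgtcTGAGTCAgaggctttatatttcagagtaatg
Serpinb2: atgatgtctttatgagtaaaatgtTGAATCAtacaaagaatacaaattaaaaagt
Serpinb8: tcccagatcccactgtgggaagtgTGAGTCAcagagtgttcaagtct
Serpinb5: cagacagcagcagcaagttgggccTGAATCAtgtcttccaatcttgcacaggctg
Serpinb11: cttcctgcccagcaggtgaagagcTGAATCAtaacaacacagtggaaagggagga
Serpinb12: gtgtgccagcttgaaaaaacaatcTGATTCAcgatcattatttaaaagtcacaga
These are, in the same order, *Serpinb7*, chr1:107422620-107422674, *Serpinb2*, chr1:107511305-107511359, *Serpinb8*, chr1:107589959-107590005, *Serpinb5*, chr1:106861011-106861065, *Serpinb11*, chr1:107362214-107362268 and *Serpinb12*, chr1:106934380-106934434. Those of *Serpinb7* and *Serpinb8* hold TGAGTCA, and the other 4 hold TGAATCA or TGATTCA. The STAT core TTCNNNGAA was in the promoters of 2 of the 16 Serpinb genes (12.5%), against 9.55% of all genes. A match of these letters is a description and shows no binding. Serpinb transcripts were GC-poor (median 42.2%, against 50.7% over all genes tested), and promoters were not matched for base composition. The 6 genes are relatives that lie close together on chromosome 1, so their matches are not independent.

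*Serpinb7* was at 10.2, 10.1, 9.55 and 13.3 FPKM in the wild type mice and at 141, 66.8, 106 and 114 FPKM in the *Socs3* cKO mice (log2(FC) = 3.26, SE = 0.23, adjusted p = 7.1e-05). *Serpinb2* was at 15, 17.2, 16.6 and 17.5 FPKM in the wild type mice and at 154, 84.7, 121 and 166 FPKM in the *Socs3* cKO mice (log2(FC) = 2.94, SE = 0.21, adjusted p = 7.4e-05). The cKO values of both genes lay several-fold above the highest wild type value. *Serpinb2* encodes plasminogen activator inhibitor 2, and *Serpinb7* is an inhibitor of the upper epidermis. The other Serpinb genes that rose spanned log2(FC) values from 1.23 for *Serpinb8* to 2.40 for *Serpinb6c*, and the median was 1.70. Of the genes, 8 were called with the length and GC trend removed.

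Stefins and cystatins inhibit cathepsins, and the family again held opposite changes. *Csta* was at 13.8, 13, 10.1 and 13.5 FPKM in the wild type mice and at 102, 46.4, 81.8 and 68.8 FPKM in the *Socs3* cKO mice (log2(FC) = 2.51, SE = 0.24, adjusted p = 0.00024). *Stfa3* was at 399.6, 347, 347 and 428 FPKM in the wild type mice and at 98.4, 47.1, 51.4 and 64.3 FPKM in the *Socs3* cKO mice (log2(FC) = -2.6, SE = 0.23, adjusted p = 0.00017). The groups did not overlap for either gene, and *Cst3* also rose (1.52). Stefin genes of the mouse form a cluster of related copies, but no 50-base stretch of *Stfa3* was found in another annotated protein-coding gene. The 2 up-regulated of 10 genes became 1 without *Socs3* cKO 3, *Socs3* cKO 4 or any 1 wild type mouse, and the 1 down-regulated became 4 without *Socs3* cKO 1 and 3 with the length and GC trend removed. Of 16 kallikreins and other genes of shedding, *Tmprss11f* (log2(FC) = 2.56), *Spink5* (2.47) and *Ctsl* (1.16) rose, whereas *Klk5* was at 0.65 without a call. *Spink5* encodes LEKTI, the inhibitor that restrains kallikreins.

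Lipid genes of the epidermis and sebaceous gland rose, and none of those listed fell. Of 25 genes for barrier lipids, 9 were up-regulated (14 with the length and GC trend removed; median 0.76). *Lipn* was at 2.44, 2.58, 1.81 and 3.47 FPKM in the wild type mice and at 22.2, 11.4, 22.5 and 20.8 FPKM in the *Socs3* cKO mice (log2(FC) = 2.83, SE = 0.28, adjusted p = 0.00026). *Lipn* and its neighbour *Lipk* (2.65) encode lipases of the granular layer. *Abca12* (1.83), which loads lipids into lamellar granules, *Alox12b* (1.35), a lipoxygenase of the lipid envelope, and *Elovl4* (1.02), which makes very long fatty acids, rose as well.

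Cholesterol is a main barrier lipid and is made within the epidermis. Of 23 genes of its synthesis 10 rose and none fell (median 0.98), and 6 were called without wild type 1. *Sc4mol* was at 78.1, 81.9, 85.2 and 85.5 FPKM in the wild type mice and at 388, 213, 267 and 307 FPKM in the *Socs3* cKO mice (log2(FC) = 1.80, SE = 0.18, adjusted p = 0.00032). *Cyp51* was at a log2(FC) of 1.41 and *Acat2* at 1.34, and both were up-regulated.

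In the sebaceous gland list 13 of 26 genes rose (median 1.03). *Scd1* was at 271, 294, 269.9 and 262 FPKM in the wild type mice and at 886, 1415, 992 and 1587 FPKM in the *Socs3* cKO mice (log2(FC) = 2.11, SE = 0.21, adjusted p = 0.00025). *Scd1* encodes the desaturase of sebum and is also expressed in fat cells. Genes of wax and retinol metabolism also rose, with *Sdr16c6* (log2(FC) = 2.35) and *Mogat1* (2.18), as did *Pparg* (1.36), a regulator of sebaceous and fat cells. At 10 weeks *Scd1* was at 867, 1081 and 880.0 FPKM in wild type and 1199.5, 1259.5, 958 and 1004 FPKM in *Socs3* cKO mice, so its 2-week wild type values were the lowest of the 4 groups.

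Detoxification enzymes rose in part of each family. Glutathione S-transferases attach glutathione to reactive compounds, and 12 of 22 rose, led by *Gsta3* (log2(FC) = 2.5), *Gsta4* (2.07) and *Mgst2* (1.81). *Gstp1*, the first of the list, was at 0.11 and shares most of its sequence with copies. The 12 genes became 4 without *Socs3* cKO 3, 5 without *Socs3* cKO 4 and 4 without any 1 of the 4 wild type mice. Of 25 cytochrome P450 genes 9 rose and 2 fell. *Cyp2j12* was at 0.423, 0.718, 0.450 and 0.439 FPKM in the wild type mice and at 6.29, 5.88, 5.93 and 7.57 FPKM in the *Socs3* cKO mice (log2(FC) = 3.44, SE = 0.20, adjusted p = 3.7e-05). Its levels were low throughout, but the lowest cKO value was far above the highest wild type value. Close relatives rose too, with *Cyp2j8* (log2(FC) = 2.14) and *Cyp2j6* (2.00), whereas *Cyp2s1* (log2(FC) = -2.12) fell and *Cyp1a1* was at 0.51. The number of P450 genes that fell became 1 without *Socs3* cKO 3, 1 without *Socs3* cKO 4 and 0 to 1 without any 1 of the 4 wild type mice.

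Among 32 genes of the oxidative stress response, 7 rose and 2 fell. *Nqo1* was at 6.80, 6.25, 7.84 and 7.80 FPKM in the wild type mice and at 33.2, 17.3, 28.4 and 23.4 FPKM in the *Socs3* cKO mice (log2(FC) = 1.78, SE = 0.21, adjusted p = 0.00063). *Gclc* was at 38.1, 35.2, 32.0 and 36.7 FPKM in the wild type mice and at 6.93, 12.3, 10.5 and 13 FPKM in the *Socs3* cKO mice (log2(FC) = -1.76, SE = 0.21, adjusted p = 0.00056). Neither gene showed overlap between groups. *Nqo1*, a quinone reductase, and *Gclc*, the catalytic subunit for glutathione synthesis, are both known targets of NRF2, and they moved in opposite directions here. The glutathione peroxidases also split, with *Gpx4* at 1.30 and *Gpx2* at -2.18. The 7 up-regulated genes became 11 without *Socs3* cKO 2, 4 without *Socs3* cKO 3, 4 without *Socs3* cKO 4, 4 without wild type 1, 4 without wild type 2 and 4 without wild type 4. In retinoid metabolism 6 of 22 genes rose and 1 fell: the retinaldehyde dehydrogenases *Aldh1a7* (log2(FC) = 1.80) and *Aldh1a1* (1.79) were higher and *Aldh1a2* (-1.84) lower. *Aldh1a2* did not reach the expression filter without wild type 2, 3 or 4, and 2 retinoid genes fell without *Socs3* cKO 2 or 4.

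Defence genes of the epithelium rose. Antimicrobial proteins are secreted by keratinocytes under stress, and 11 of 16 were up-regulated with none down-regulated (median 1.66). *Lcn2* was at 1.59, 1.32, 1.90 and 2.54 FPKM in the wild type mice and at 14.9, 12.4, 15.2 and 16.2 FPKM in the *Socs3* cKO mice (log2(FC) = 2.96, SE = 0.21, adjusted p = 7.3e-05). *Lcn2* encodes lipocalin 2, which withholds iron from bacteria. The beta-defensin gene *Defb14* (5.09) and the leukocyte protease inhibitor gene *Slpi* (2.9) rose as well. The count became 7 without wild type 1, 6 without wild type 2 and 7 without wild type 4, and 7 with the length and GC trend removed. Only 15 of the 16 reached the expression filter without *Socs3* cKO 2, 3 or 4, so the remaining gene passed it through these mice alone.

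Acute phase proteins are best known from the liver, where IL-6 and STAT3 induce them, and 9 of 17 rose in the ear (median 2.22). All 17 reached the expression filter without any 1 wild type mouse, but 15 or 16 did without any 1 cKO mouse. The median thus includes genes that passed the filter through the cKO mice. *A2m* was at 0.525, 1.10, 1.27 and 0.624 FPKM in the wild type mice and at 26.3, 29.9, 31.7 and 18 FPKM in the *Socs3* cKO mice (log2(FC) = 4.81, SE = 0.30, adjusted p = 4.7e-05). *Azgp1* was at 0.496, 0.913, 0.581 and 0.773 FPKM in the wild type mice and at 9.96, 9.14, 21.3 and 23.2 FPKM in the *Socs3* cKO mice (log2(FC) = 4.25, SE = 0.35, adjusted p = 0.00013). Both genes were near 1 FPKM in every wild type mouse and many-fold higher in every cKO mouse. Fibrinogen alpha (*Fga*, 3.43), *Serpina3n* (3.17), the orosomucoids *Orm1* (2.65) and *Orm2* (2.47), transferrin (*Trf*, 2.6) and ceruloplasmin (*Cp*, 2.24) rose too. Haptoglobin (*Hp*) was at 1.81 and was not called.

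The IL-1 family holds alarm cytokines of keratinocytes and their receptors, and 10 of 23 rose and none fell (median 0.94). *Il1f8* was at 6.35, 3.86, 4.41 and 5.74 FPKM in the wild type mice and at 71.7, 36.5, 61.8 and 53.4 FPKM in the *Socs3* cKO mice (log2(FC) = 3.41, SE = 0.25, adjusted p = 7.3e-05). *Il33* was at 2.27, 3.2, 3.43 and 3.44 FPKM in the wild type mice and at 29.8, 19, 27.9 and 44.9 FPKM in the *Socs3* cKO mice (log2(FC) = 3.21, SE = 0.27, adjusted p = 0.00013). *Il1f8* is one of the IL-36 cytokine genes, and the others, *Il1f6* (log2(FC) = 3.30) and *Il1f9* (2.46), were up-regulated with it. *Il1a* (2.11), *Il18* (1.79) and the decoy receptor gene *Il1r2* (1.88) rose as well, so both agonists and an inhibitor of the family were among the 10.

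The gp130 cytokines, their receptors and STAT feedback genes, the pathway that SOCS3 restrains, were called at about the share of all genes tested (14.4%). Of 30 tested genes 2 rose, *Cntf* (1.51) and *Socs4* (1.5), and 2 fell (median -0.68). *Cntfr* was at 19.6, 17.9, 18 and 20.3 FPKM in the wild type mice and at 0.151, 2.19, 3.29 and 1.94 FPKM in the *Socs3* cKO mice (log2(FC) = -3.75, SE = 0.72, adjusted p = 0.0055). *Clcf1* was at 10.3, 11.3, 11.6 and 8.51 FPKM in the wild type mice and at 1.20, 2.85, 3.30 and 2.13 FPKM in the *Socs3* cKO mice (log2(FC) = -2.17, SE = 0.30, adjusted p = 0.0013). The fallen pair are a receptor and a ligand of the ciliary neurotrophic factor branch, and *Socs3* cKO 1 was the lowest mouse for both. The *Cntf* locus shares most of its sequence with another gene, so its level is uncertain. *Stat3* was at -0.93 (adjusted p = 0.072), *Il6st*, which encodes gp130, at 0.04 and *Il6ra* at -1.18 (adjusted p = 0.16), and none was called. *Osmr*, the oncostatin M receptor gene, was at 0.94 (adjusted p = 0.0012), just under the fold threshold. *Il6* and *Il31ra* did not reach the expression filter. The 2 up-regulated genes became 1 without wild type 1, 1 without wild type 2 and 1 without wild type 4 and 0 with the length and GC trend removed, and the 2 down-regulated genes became 6 without *Socs3* cKO 1, 1 without *Socs3* cKO 4 and 1 without any 1 of the 4 wild type mice.

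Other signals showed single changes. Of 13 genes of the IL-20 group and related epithelial cytokines, *Il22ra2*, which encodes the soluble IL-22 trap, was at 2.40 and *Il7* at 1.33, and both rose. *Il20ra* was at 0.79. Only 1 was called without *Socs3* cKO 3, *Socs3* cKO 4 or any 1 wild type mouse, or with the length and GC trend removed. Among 25 chemokines 4 rose, including the lymphatic chemokines *Ccl21a* (log2(FC) = 1.66) and *Ccl21b* (1.45), whose copies cannot be told apart by short reads. The homeostatic chemokines *Cxcl14* (log2(FC) = -2.83) and *Cxcl12* (-1.37) fell. *Cxcl1* was at 2.18 without a call. The up-regulated chemokines became 7 without *Socs3* cKO 2, 1 without *Socs3* cKO 3 and 1 to 2 without any 1 of the 4 wild type mice, and the down-regulated ones 1 without *Socs3* cKO 3, *Socs3* cKO 4 or any 1 wild type mouse, or with the length and GC trend removed. Of 27 interferon-stimulated genes 3 rose, among them *B2m* (1.65), and 2 fell, *Oas2* (log2(FC) = -1.51) and *Stat2* (-1.26), with *Isg15* at 0.68. Without *Socs3* cKO 3, *Socs3* cKO 4 or any 1 wild type mouse, or with the length and GC trend removed, 1 interferon gene rose and none fell.

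Ligands of the EGF receptor, which drive keratinocyte growth, moved in both directions. *Ereg* was at 1.76, 1.74, 1.28 and 2.15 FPKM in the wild type mice and at 11.8, 8.74, 13.6 and 9.92 FPKM in the *Socs3* cKO mice (log2(FC) = 2.6, SE = 0.21, adjusted p = 0.00012). *Areg* was at 4.5, 4.47, 4.78 and 5.75 FPKM in the wild type mice and at 0.674, 0.911, 1.32 and 0.656 FPKM in the *Socs3* cKO mice (log2(FC) = -2.37, SE = 0.24, adjusted p = 0.00029). Epiregulin and amphiregulin thus had clearly separate groups with opposite signs. *Tgfa* (-2.49) fell with *Areg*, and *Btc* (1.32), encoding betacellulin, rose with *Ereg*. The 2 that rose became 1 without *Socs3* cKO 3 or wild type 1, 2 or 3, or with the length and GC trend removed.

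Macrophage genes were called below the share of all genes tested (14.4%), and Langerhans cell, T cell and mast cell genes at or above it. None of 19 macrophage genes was called (median 0.35; *Csf1r* at 0.19), and summed markers were 97.6 to 111 FPKM in wild type and 113 to 139.5 FPKM in cKO mice. Of 18 Langerhans cell and MHC class II genes 4 rose, but 9 were higher and 9 lower in cKO mice (median 0.12). Their summed markers, *Cd207* and *H2-Ab1*, were at 142.5 to 158 FPKM in wild type and 74.4 to 177 FPKM in cKO mice. *Cd207* was at 8.27, 8.77, 6.90 and 6.31 FPKM in the wild type mice and at 30.7, 20.0, 26.6 and 21.7 FPKM in the *Socs3* cKO mice (log2(FC) = 1.69, SE = 0.18, adjusted p = 0.00041). Langerin, the product of *Cd207*, marks the dendritic cells of the epidermis, and no cKO mouse overlapped the wild type range. *H2-Aa* (1.19), *Cd80* (1.27) and *Cd86* (1.05) also rose, but 1 of the 4 was called without any 1 mouse other than *Socs3* cKO 2. Of 13 T cell genes *Cd3d* (log2(FC) = 1.23) and *Cd3g* (1.08) rose and *Cd4* (log2(FC) = -1.28) fell, with *Cd3e* at -0.31. None of these 3 was called without *Socs3* cKO 3, *Socs3* cKO 4 or any 1 wild type mouse. Of 12 mast cell genes *Ms4a2* (1.43) and *Mrgprb1* (1.38) rose, with *Cpa3* at 1.10, and neither was called without *Socs3* cKO 3 or any 1 wild type mouse. Of the 4 tested neutrophil genes *Padi4* (-3.09), which is also a hair follicle gene, fell and *Cxcr2* was at 0.61; *Padi4* was not called without *Socs3* cKO 3 or any 1 wild type mouse. The only B cell gene tested, *Blnk*, was at 0.51. Summed markers were at 13.8 to 21.4 FPKM in wild type and 24.3 to 39.4 FPKM in cKO mice for T cells, and at 412 to 437 and 488 to 1037 FPKM for mast cells. Those of neutrophils were at most 2.08 FPKM in wild type and 3.72 FPKM in cKO mice. Removing the length and GC trend left 1 Langerhans cell or MHC class II gene, 1 T cell gene, 1 mast cell gene and 1 macrophage gene up-regulated, and no T cell gene down-regulated.

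Many regulators of the growing hair follicle fell. The matrix is the dividing base of the follicle that forms the hair, and 16 of 27 of its regulators were down-regulated and none up-regulated (median -2.48). *Hoxc13* was at 24.6, 22.1, 22.9 and 28.0 FPKM in the wild type mice and at 0.813, 2.03, 1.92 and 1.49 FPKM in the *Socs3* cKO mice (log2(FC) = -3.95, SE = 0.27, adjusted p = 6.5e-05). *Lef1* was at 6.08, 5.43, 4.14 and 6.15 FPKM in the wild type mice and at 0.268, 1.26, 0.845 and 0.699 FPKM in the *Socs3* cKO mice (log2(FC) = -2.81, SE = 0.38, adjusted p = 0.0012). *Hoxc13* controls hair keratin genes and *Lef1* is the Wnt effector of the matrix, and in both the highest cKO value was far under the lowest wild type value. Further falls were in *Padi3* (-7.50) and *Gprc5d* (-5.85), genes of the forming hair, *Foxn1* (-3.17), the gene affected in nude mice, and the signal gene *Shh* (-3.42). The count became 7 to 9 without any 1 of the 4 wild type mice, and 14 with the length and GC trend removed. The 10-week wild type mice had 1.31, 1.30 and 1.02 FPKM of *Hoxc13*, in the range of the 2-week cKO mice.

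Of 21 follicle stem cell genes 8 fell and 1 rose. *Tbx1* (log2(FC) = -3.18), *Lhx2* (-2.84) and *Lgr5* (-2.39) fell, as did *Sox9* (-1.53). *Wif1* was at 38.4, 44.4, 52.8 and 45.4 FPKM in the wild type mice and at 363, 225, 464 and 342 FPKM in the *Socs3* cKO mice (log2(FC) = 2.9, SE = 0.22, adjusted p = 9.0e-05). *Wif1* encodes a secreted inhibitor of Wnt ligands, and it was the 1 that rose. The 8 that fell became 5 without any 1 of the 4 wild type mice, and 2 rose with the length and GC trend removed. Across 41 Wnt and Frizzled genes 7 fell, among them *Wnt11* (log2(FC) = -2.61) and *Tcf7* (-1.97), and 1 rose. *Frzb* was at 4.39, 5.86, 7.28 and 4.98 FPKM in the wild type mice and at 20.6, 43.4, 65.7 and 71.1 FPKM in the *Socs3* cKO mice (log2(FC) = 3.01, SE = 0.38, adjusted p = 0.00085). *Frzb*, like *Wif1*, encodes a secreted Wnt antagonist, while *Ctnnb1*, the gene of beta-catenin, was at -0.48 and was not called. The 7 fallen genes became 14 without *Socs3* cKO 1, 11 without *Socs3* cKO 2, 4 without *Socs3* cKO 4 and 4 without any 1 of the 4 wild type mice, and the 1 that rose became 4 without *Socs3* cKO 1 and 3 with the length and GC trend removed. Of 16 Notch genes *Heyl* (log2(FC) = -2.6), *Dll1* (-1.36) and *Jag1* (-1.32) fell, and *Notch1* was at -2.04 without a call; the 3 became 6 without *Socs3* cKO 1, 1 without *Socs3* cKO 3, 0 without *Socs3* cKO 4 and 0 without any 1 of the 4 wild type mice, and 1 with the length and GC trend removed. None of 15 melanocyte genes was called, with *Dct* at -0.67, and 3 fell without *Socs3* cKO 1 and 1 without *Socs3* cKO 2 or with the length and GC trend removed.

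Ribosomal proteins build the particle that makes all other proteins. Of 79 cytosolic ribosomal protein genes 46 rose and none fell (median 1.23). *Rps25* was at 435, 417, 454 and 386 FPKM in the wild type mice and at 2484, 859, 1602 and 1344 FPKM in the *Socs3* cKO mice (log2(FC) = 1.79, SE = 0.29, adjusted p = 0.0028). *Socs3* cKO 1 was the highest and *Socs3* cKO 2 the lowest cKO mouse. *Rpl35a* (1.77) and *Rpl13a* (1.69) rose by similar amounts, and *Rplp0* was at 0.81 without a call. Many ribosomal genes have processed copies, so their levels are uncertain. Their transcripts are short, with a median length of 857 bases. The 46 genes became 71 without *Socs3* cKO 2, 2 without *Socs3* cKO 3, 9 without *Socs3* cKO 4 and 0 to 3 without any 1 of the 4 wild type mice, 25 after median-of-ratios scaling, 3 after quantile normalization and 22 with the length and GC trend removed.

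Mitochondrial ribosomes make the proteins of the mitochondrial genome, and the proteasome degrades tagged proteins. Of 75 mitochondrial ribosomal genes *Mrpl41* (log2(FC) = 1.18), *Mrpl33* (1.11) and *Mrps6* (1.02) rose (median 0.55; *Mrpl12* at 0.37). Of 42 translation factors 4 rose, led by *Eif3e* (log2(FC) = 1.52) and *Eif3m* (1.44), and *Eif4g3* (log2(FC) = -1.70) fell, with *Eef1a1* at 1.0. Of 32 proteasome genes 5 rose, led by *Psma5* (log2(FC) = 1.14), *Psmb7* (1.14) and *Psma4* (1.10), and *Psma1* was at 1.06 without a call. Without *Socs3* cKO 2 the up-regulated genes numbered 24, 9 and 12 in these lists, and without *Socs3* cKO 3, *Socs3* cKO 4 or any 1 wild type mouse at most 1. The proteasome count was also 0 without *Socs3* cKO 1, and the call of *Eif4g3* needed both *Socs3* cKO 3 and 4 and all 4 wild type mice. After removal of the length and GC trend 0 mitochondrial ribosomal genes, 1 translation factor and 1 proteasome gene rose, and no translation factor fell.

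Some genes of mitochondrial energy supply rose. Complex I takes electrons from NADH, and 7 of its 36 genes rose (median 0.85), led by *Ndufb4* (log2(FC) = 1.48), *Ndufa5* (1.38) and *Ndufb2* (1.24), with *Ndufs1* at 0.71 and not called. Of 22 genes of complexes II to IV 4 rose, among them *Cox7b* (log2(FC) = 1.34) and *Uqcrh* (1.30), with *Sdha* at 0.11. *Ndufa4* was at 223, 205, 234 and 226 FPKM in the wild type mice and at 1369.2, 550.0, 921 and 843 FPKM in the *Socs3* cKO mice (log2(FC) = 1.98, SE = 0.25, adjusted p = 0.00092). Every cKO mouse was well above every wild type mouse. *Atp5l* (1.83) and *Atp5c1* (1.20) of 15 ATP synthase genes rose, with *Atp5a1* at -0.38. In the citric acid cycle *Mdh1* (1.23) and *Dld* (1.09) of 18 rose, with *Cs* at -0.12. Of 24 genes of fatty acid oxidation 6 rose, led by *Acadm* (log2(FC) = 1.29), *Acox2* (1.28) and *Acot13* (1.27). None of 18 glycolysis genes was called, and the glucose transporter gene *Slc2a1* was at -0.15.

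These counts moved with the libraries used. The 7 complex I genes became 21 without *Socs3* cKO 2, 1 without *Socs3* cKO 3, 0 without *Socs3* cKO 4 and 0 to 1 without any 1 of the 4 wild type mice. The 4 of complexes II to IV became 11 without *Socs3* cKO 2 and 1 without *Socs3* cKO 3, *Socs3* cKO 4 or any 1 wild type mouse. The ATP synthase genes became 9 without *Socs3* cKO 2 and at most 1 without *Socs3* cKO 3, *Socs3* cKO 4 or any 1 wild type mouse. The citric acid cycle genes became 1 without *Socs3* cKO 1 and 0 without *Socs3* cKO 3, *Socs3* cKO 4 or any 1 wild type mouse, and the fatty acid oxidation genes 3 without wild type 1 or 2. With the length and GC trend removed the counts were 4 for complex I, 0 for complexes II to IV, 1 for ATP synthase, 0 for the citric acid cycle, 4 for fatty acid oxidation and 3 for glycolysis. The medians were then 0.56 for complex I, 0.25 for complexes II to IV, 0.44 for the citric acid cycle and 0.70 for glycolysis.

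Chromatin regulators, which are long and GC-rich genes (median GC content 53.2%), had a negative median. Of 42 tested 6 fell (median -1.28), and the median was -0.18 with the length and GC trend removed. *Kdm6b* was at 20.6, 20.0, 19.5 and 19.7 FPKM in the wild type mice and at 0.530, 4.64, 3.75 and 3.17 FPKM in the *Socs3* cKO mice (log2(FC) = -3.02, SE = 0.57, adjusted p = 0.0053). The wild type mice were nearly equal, and *Socs3* cKO 1 was far below the other cKO mice. *Kdm6b* encodes a histone H3 lysine demethylase, and *Mll2* (-2.66), *Chd3* (-2.54) and *Arid1a* (-2.11) also fell. The count became 18 without *Socs3* cKO 1, 18 without *Socs3* cKO 2, 0 without *Socs3* cKO 3, 0 without *Socs3* cKO 4 and 0 without any 1 of the 4 wild type mice. Of 20 genes for SR proteins and nuclear speckle factors *Acin1* (-2.04) and *Clk2* (-1.44) fell, with *Srrm2* at -2.44; the 2 became 5 without *Socs3* cKO 1, 6 without *Socs3* cKO 2, 0 without *Socs3* cKO 3, 0 without *Socs3* cKO 4 and 0 without any 1 of the 4 wild type mice, and 4 with the length and GC trend removed.

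Dermal matrix genes were lower in most lists. Of 20 fibrillar and network collagens 7 fell and *Col8a1* (1.52) rose (median -1.63). *Col1a1* was at 3544, 3932, 4435 and 3614 FPKM in the wild type mice and at 223, 648, 655 and 483 FPKM in the *Socs3* cKO mice (log2(FC) = -3.06, SE = 0.34, adjusted p = 0.00043). Type I collagen is the main fibre of dermis, and every cKO mouse was below every wild type mouse, with *Socs3* cKO 1 lowest. *Col1a1* was at 180.3, 898 and 291 FPKM in the 10-week wild type mice, and at 633, 584, 568 and 561 FPKM in the 10-week cKO mice. *Col6a6* (-3.0), *Col14a1* (-2.40) and *Col3a1* (-1.21) fell as well. With the length and GC trend removed 3 collagens fell, *Col1a1* among them (log2(FC) = -1.28), and the median was -0.19. The 7 became 12 without *Socs3* cKO 1, 4 without *Socs3* cKO 3, 4 without *Socs3* cKO 4 and 4 without any 1 of the 4 wild type mice, and the call of *Col8a1* was absent without wild type 4.

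Of 24 collagen processing genes *Loxl1* (log2(FC) = -2.26), *Bmp1* (-2.04) and *Serpinh1* (-1.72) and 2 others fell, with *Lox* at -0.02. Basement membrane genes fell in 4 of 15, namely *Col15a1* (log2(FC) = -3.25), *Nid2* (-2.56), *Col18a1* (-2.56) and *Col4a1* (-1.95). Of 31 genes of elastic fibres and proteoglycans 6 fell, led by *Tnxb* (log2(FC) = -2.58), *Ltbp2* (-2.05) and *Fbn2* (-2.03), with *Eln* at -1.01 and not called. *Dcn* was at 824, 840.1, 907 and 782 FPKM in the wild type mice and at 3317, 1260.0, 2129.5 and 1720.3 FPKM in the *Socs3* cKO mice (log2(FC) = 1.24, SE = 0.28, adjusted p = 0.0098). Decorin, a proteoglycan that binds collagen fibres, was the 1 of this list that rose, so products of fibroblasts moved in both directions. With the length and GC trend removed none of the elastic fibre or collagen processing genes was down-regulated, 2 basement membrane genes were, and the basement membrane median was 0.10.

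Leaving out mice moved these counts too. The 5 collagen processing genes became 8 without *Socs3* cKO 2, 2 without *Socs3* cKO 4 and 1 without any 1 of the 4 wild type mice. The 4 basement membrane genes became 8 without *Socs3* cKO 1, 1 without wild type 2, 1 without wild type 3 and 1 without wild type 4. The 6 fallen elastic fibre genes became 12 without *Socs3* cKO 1, 2 without *Socs3* cKO 3, 2 without *Socs3* cKO 4 and 2 to 3 without any 1 of the 4 wild type mice, and *Dcn* was called in the set of all 8 mice and without *Socs3* cKO 2, but not without any other 1 mouse. The plot of list medians with and without the trend shows which groups depended on it.

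**Figure D3:**
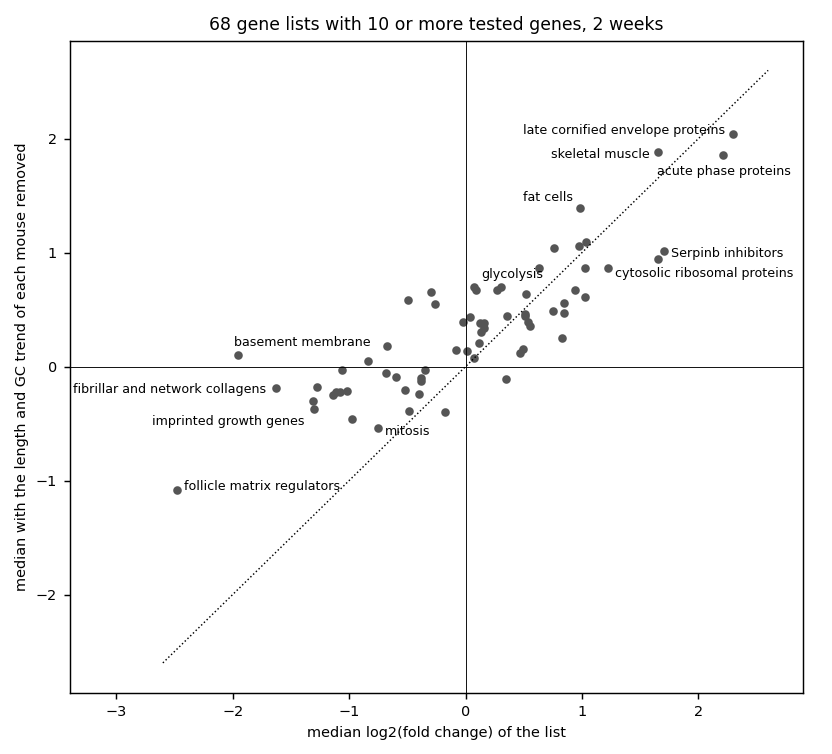
Median log2(FC) of each list as measured (horizontal axis) against its median with the length and GC trend removed (vertical axis), 1 point for each of the 68 lists with 10 or more tested genes, with the line of equality (dotted). Collagens move from -1.63 to -0.19 and basement membrane genes from -1.95 to 0.10, while late cornified envelope genes stay above 2.

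Matrix proteases and their inhibitors held 8 down-regulated genes of 33 and 1 up-regulated. *Adamts4* was at 5.25, 5.47, 5.33 and 5.42 FPKM in the wild type mice and at 0, 0.488, 0.343 and 0.423 FPKM in the *Socs3* cKO mice (log2(FC) = -4.0, SE = 0.52, adjusted p = 0.0010). *Adamts4* encodes an aggrecanase, and it was at 0 in *Socs3* cKO 1. *Adamts19* (log2(FC) = -2.80) and *Adamts8* (-2.76) also fell, the inhibitor gene *Timp4* (2.61) rose, and *Mmp2* was at 0.25. The 8 became 13 without *Socs3* cKO 1, 5 without *Socs3* cKO 3, 5 without *Socs3* cKO 4 and 4 without any 1 of the 4 wild type mice, and 7 with the length and GC trend removed; the 1 that rose became 2 without *Socs3* cKO 2 or with the length and GC trend removed. Of 24 TGF-beta, BMP and activin genes 4 fell, including *Chrdl2* (log2(FC) = -3.82), *Pmepa1* (-2.40) and *Inhbb* (-2.22), and 2 rose, *Bmpr2* (log2(FC) = 1.59) and *Chrdl1* (1.04), while *Tgfb1* was at -2.40 without a call. The 4 became 8 without *Socs3* cKO 1, 9 without *Socs3* cKO 2, 2 without *Socs3* cKO 3, 1 without *Socs3* cKO 4 and 1 to 2 without any 1 of the 4 wild type mice, and the 2 became 1 without *Socs3* cKO 1, 1 without *Socs3* cKO 4 and 1 without any 1 of the 4 wild type mice, and 1 with the length and GC trend removed.

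Quantile normalization, which gives all libraries the same distribution, moved some groups by over 1.5 times. Up-regulated genes became 2 in complex I, 0 among proteasome genes and 4 in the oxidative stress response, but 10 among chemokines and 9 among mitochondrial ribosomal genes. Down-regulated genes became 18 among chromatin regulators, 13 collagens, 10 collagen processing, 13 elastic fibre, 8 basement membrane and 13 Wnt and Frizzled genes. Calls over all genes rose as well, from 979 to 1474 up-regulated and from 972 to 1395 down-regulated, so part of these increases is general. The ribosomal median went from 1.23 to 0.47, while that of the fat cell list went from 0.98 to 1.43. Medians turned sign for stefins, claudins, the EGF receptor list, interferon-stimulated genes, melanocytes, T cells, histones, heat shock proteins and the unfolded protein response. Under median-of-ratios scaling 11 chromatin regulators fell, with 1133 genes down-regulated in all, and the medians of interferon-stimulated genes and T cells turned sign.

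Genes of cells that do not express keratin 5 changed as well. Skeletal muscle had the highest number of up-regulated genes after ribosomes, 24 of 38 (median 1.66, and 30 with the length and GC trend removed). Only 37 of the 38 reached the expression filter without *Socs3* cKO 1, 3 or 4, so the remaining gene passed it through these mice alone. *Ckmt2* was at 1.45, 1.28, 3.39 and 1.39 FPKM in the wild type mice and at 33.5, 20.4, 29.9 and 21.5 FPKM in the *Socs3* cKO mice (log2(FC) = 3.82, SE = 0.32, adjusted p = 0.00013). Sarcomeric mitochondrial creatine kinase, its product, belongs to mature oxidative fibres, as do *Myl2* (3.90), *Ankrd2* (3.38) and myoglobin (*Mb*, 3.37). Genes of fast fibres, *Myh1* and *Mylpf* among them, were called too, so calls were not particular to oxidative fibres. The only gene of the list that fell was *Myh8* (-1.14), the perinatal myosin heavy chain, and this call was absent without *Socs3* cKO 4 or any 1 wild type mouse, or with the length and GC trend removed. The alpha-actin gene *Acta1* was at 0.18. Summed muscle markers were at 477.7 to 746 FPKM in wild type and 1177 to 1993 FPKM in cKO mice.

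Red blood cell genes moved in both directions. *Hba-a1* was at 168, 172, 169 and 193 FPKM in the wild type mice and at 2767, 1024, 2417 and 1132 FPKM in the *Socs3* cKO mice (log2(FC) = 3.25, SE = 0.33, adjusted p = 0.00030). *Slc4a1* was at 2.95, 3.43, 3.04 and 3.62 FPKM in the wild type mice and at 0.123, 0.0973, 0.370 and 0.138 FPKM in the *Socs3* cKO mice (log2(FC) = -3.66, SE = 0.29, adjusted p = 0.00010). Haemoglobin genes, whose copies share sequence, and *Alas2* (2.05), which begins haem synthesis, rose. The anion exchanger gene *Slc4a1* and the mitochondrial iron importer gene *Slc25a37* (-2.29) fell. Of 8 genes 5 rose and 2 fell, including *Hbb-b1* (log2(FC) = 3.03) and *Hba-a2* (3.25) among those that rose. Summed red blood cell markers were at 299.7 to 348 FPKM in wild type and 1734 to 4807 FPKM in cKO mice. In 10-week wild type mice *Hba-a1* was at 1958, 2729.8 and 2885 FPKM and *Slc4a1* at 0.140, 0.114 and 0.325 FPKM, each in the range of the 2-week cKO mice or close to it.

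Of 20 fat cell genes 8 rose and none fell (median 0.98). Only 19 of the 20 reached the expression filter without *Socs3* cKO 2, 3 or 4, so the remaining gene passed it through these mice alone. *Cox8b* was at 14.7, 14.2, 11.8 and 10.8 FPKM in the wild type mice and at 146, 56.5, 125 and 96.9 FPKM in the *Socs3* cKO mice (log2(FC) = 2.96, SE = 0.29, adjusted p = 0.00025). *Retn* was at 1.88, 1.19, 2.11 and 0.859 FPKM in the wild type mice and at 7.76, 9.96, 8.97 and 29.3 FPKM in the *Socs3* cKO mice (log2(FC) = 2.98, SE = 0.45, adjusted p = 0.0020). *Cox8b* is expressed in muscle and brown fat, whereas resistin, the product of *Retn*, comes from white fat. *Socs3* cKO 4 was the highest for *Retn*. *Cfd* (2.28) and *Cox7a1* (2.38) rose too, and *Adipoq* was at 1.78 without a call. Summed fat markers were at 219.7 to 256 FPKM in wild type and 390.1 to 770.5 FPKM in cKO mice.

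Cartilage genes moved in both directions, with 4 of 22 up and 2 down. *Col2a1* was at 119, 141, 212 and 179 FPKM in the wild type mice and at 9.47, 31.1, 52.4 and 13.4 FPKM in the *Socs3* cKO mice (log2(FC) = -2.89, SE = 0.50, adjusted p = 0.0037). *Ucma* was at 2.58, 2.96, 4.27 and 2.63 FPKM in the wild type mice and at 20.6, 16.0, 25.5 and 22.7 FPKM in the *Socs3* cKO mice (log2(FC) = 2.74, SE = 0.22, adjusted p = 0.00010). *Col2a1* is the main collagen of cartilage and *Ucma* a small protein of its resting cells, and neither had overlapping groups. *Col2a1* was not called with the length and GC trend removed (log2(FC) = -0.74). The 4 that rose became 2 without *Socs3* cKO 3 or 4 or wild type 1, 2 or 4, and the 2 that fell became 1 without *Socs3* cKO 4 or any 1 wild type mouse. The other gene that fell was *Matn3* (-2.33), and *Col2a1* was not called without *Socs3* cKO 4 or any 1 wild type mouse. Removing the length and GC trend gave 7 up-regulated and 3 down-regulated cartilage genes. The marker Matn1 was at 0 in all 8 mice.

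Smooth muscle genes were called above the share of all genes tested (14.4%), and endothelial and Schwann cell genes below it. Of 12 smooth muscle genes *Smtn* (log2(FC) = -2.5), *Mylk* (-1.40) and *Actg2* (-1.35) fell and 1 rose, with *Acta2* at -0.38; the 3 became 1 without *Socs3* cKO 3 and 1 without any 1 of the 4 wild type mice. The one that rose, *Ldb3* (1.07), is also a skeletal muscle gene and was not called without *Socs3* cKO 3 or 4 or wild type 1, 2 or 4. Of 23 endothelial genes *Emcn* (1.31) rose and *Aplnr* (-2.84) fell, with *Pecam1* at -0.07. The call of *Emcn* was absent without *Socs3* cKO 3 or wild type 1, 3 or 4, and the number that fell was 4 without *Socs3* cKO 1 and 5 without *Socs3* cKO 2. Of 14 Schwann cell genes *Ncam1* (-1.28) fell, and the number became 4 without *Socs3* cKO 1, 4 without *Socs3* cKO 2, 0 without *Socs3* cKO 3, 0 without *Socs3* cKO 4 and 0 without any 1 of the 4 wild type mice. Summed Schwann cell markers were at 290.2 to 321 FPKM in wild type and 102 to 241 FPKM in cKO mice, and fibroblast markers at 7924 to 9520.5 and 3178 to 4384 FPKM. Keratinocyte markers summed to 7612 to 8355 FPKM in wild type and 5744 to 11571 FPKM in cKO mice, with Krt5, Krt14 and *Trp63* present in all 8. After removal of the trend 2 smooth muscle genes rose and 1 fell, no endothelial gene rose and no Schwann cell gene fell. The part of cell make-up in the results above was not tested.

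**Figure D4:**
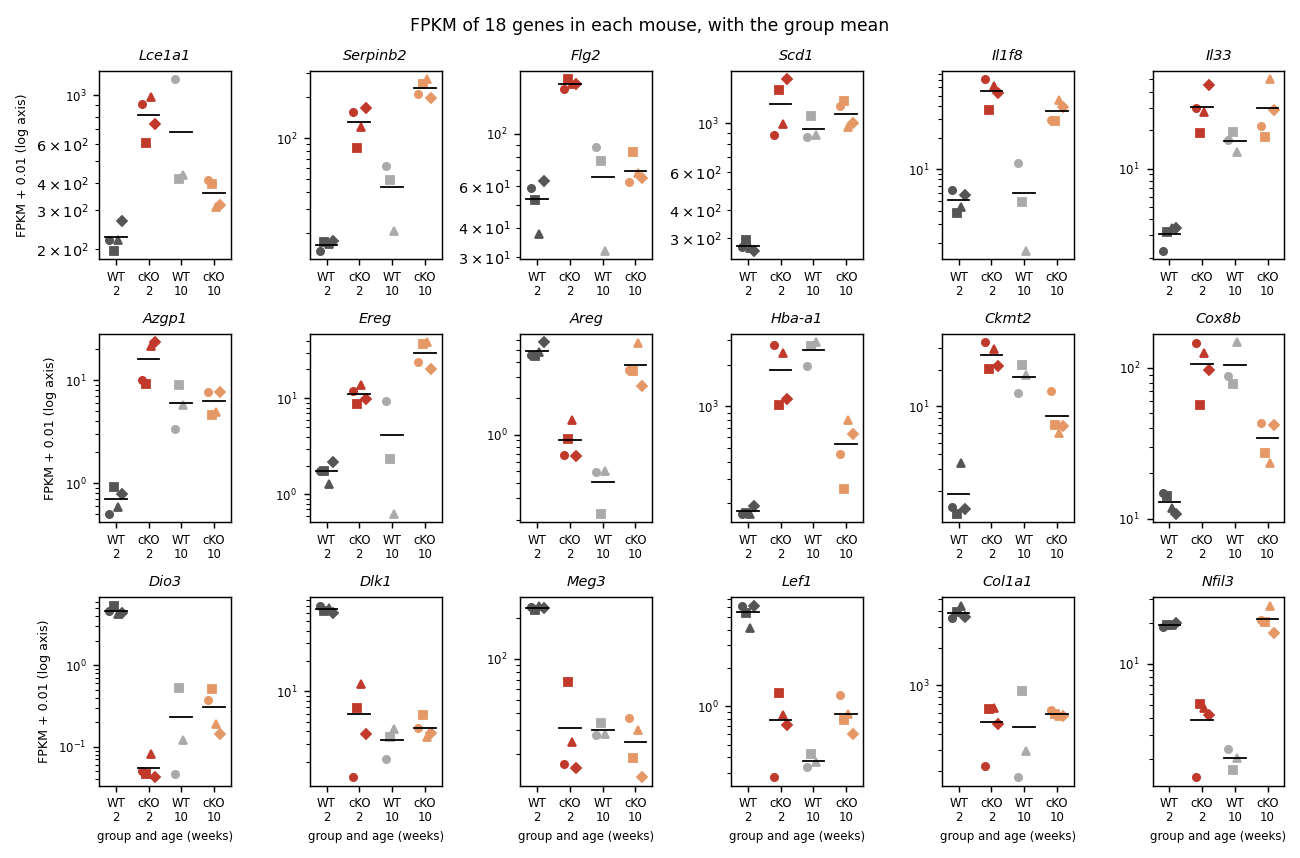
FPKM (plus 0.01, log axis) of 18 genes in each mouse (points) with the group mean (bar), by genotype and age. No panel shows overlap between the 4 *Socs3* cKO and the 4 wild type mice of 2 weeks. This was fixed by the choice of genes, since all 18 were called and no called gene overlapped.

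Imprinted growth genes are expressed from 1 parental allele, promote or limit growth before weaning and are then silenced with age in many tissues, and 12 of 20 fell with none up-regulated (median -1.31). *Dio3* was at 4.64, 5.35, 4.23 and 4.38 FPKM in the wild type mice and at 0.0403, 0.0363, 0.0716 and 0.0327 FPKM in the *Socs3* cKO mice (log2(FC) = -5.03, SE = 0.19, adjusted p = 6.2e-06). *Dlk1* was at 70.9, 63.1, 67.8 and 60.0 FPKM in the wild type mice and at 1.40, 6.86, 11.7 and 3.71 FPKM in the *Socs3* cKO mice (log2(FC) = -3.81, SE = 0.55, adjusted p = 0.0016). *Meg3* was at 242, 227, 246 and 236 FPKM in the wild type mice and at 16.7, 66.9, 24.3 and 15.7 FPKM in the *Socs3* cKO mice (log2(FC) = -3.21, SE = 0.42, adjusted p = 0.00097). These 3 genes lie in 1 cluster on chromosome 12 (build mm9, chr12:110691033-110701546 for *Dlk1*, chr12:110779211-110809936 for *Meg3* and chr12:111517278-111519307 for *Dio3*). The noncoding genes between them fell too, *Rian* (-1.45, chr12:110842155-110899919) and *Mirg* (-1.76, chr12:110973191-110987665). *Dlk1* and *Dio3* are paternally expressed and the noncoding genes maternally expressed, so both kinds were lower.

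Of other imprinted loci *H19* (-2.32), *Igf2* (-1.54), *Mest* (-1.44) and *Peg10* (-2.21) fell. Of the 16 with a GC value, 5 fell with the length and GC trend removed, and the median was -0.37. The 10-week wild type mice had 2.13, 3.53 and 4.26 FPKM of *Dlk1* and 27.5, 33.4 and 27.9 FPKM of *Meg3*, close to the 2-week cKO mice. Of 13 genes of the IGF and growth hormone axis *Igfbp4* (-2.22) fell, with *Igf1* at 0.77, and the number became 2 without *Socs3* cKO 1, 3 without *Socs3* cKO 2 and 0 without any 1 of the 4 wild type mice, while 1 rose with the length and GC trend removed.

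Cell cycle genes had few calls. None of 28 S phase genes was called (median 0.01; *Pcna* at 0.85), and 3 rose without *Socs3* cKO 2. Of 30 mitotic genes *Foxm1* (log2(FC) = -2.52), *Ube2c* (-2.52) and *Cenpa* (-1.55) fell, with *Mki67* at -0.32. *Foxm1* was at 8.71, 8.38, 7.97 and 8.16 FPKM in the wild type mice and at 0.419, 2.63, 1.13 and 2.53 FPKM in the *Socs3* cKO mice (log2(FC) = -2.52, SE = 0.49, adjusted p = 0.0059). *Foxm1* is a transcription factor of late cell cycle genes. The 3 became 6 without *Socs3* cKO 1, 1 without *Socs3* cKO 3, 10 without *Socs3* cKO 4 and 1 without any 1 of the 4 wild type mice, and 8 with the length and GC trend removed. Of 45 replication-dependent histone genes *Hist3h2ba* (-1.15) fell, with *Hist1h4i* at -0.58, and the number became 2 without *Socs3* cKO 1, 0 without *Socs3* cKO 3, 0 without *Socs3* cKO 4, 0 without wild type 1, 0 without wild type 2 and 0 without wild type 4, and 4 with the length and GC trend removed.

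Stress and timing genes gave scattered calls. Of 29 heat shock genes *Dnajb4* (1.06) rose, with *Hsp90aa1* at 0.76, and the number became 0 without *Socs3* cKO 1, 2 without *Socs3* cKO 2, 0 without *Socs3* cKO 3, 0 without *Socs3* cKO 4 and 0 without any 1 of the 4 wild type mice, and 0 with the length and GC trend removed. In the unfolded protein and amino acid response 3 of 31 rose, including *Nupr1* (log2(FC) = 1.80) and *Psph* (1.38), and *Chac1* (-2.38) fell, with *Atf4* at -0.02. The up-regulated ones became 1 without wild type 1 and 1 without wild type 4, and *Chac1* was not called without wild type 2. Of 19 clock genes 4 rose and 1 fell. *Nfil3* was at 18.6, 19.4, 19.1 and 20.1 FPKM in the wild type mice and at 1.46, 5.07, 4.73 and 4.23 FPKM in the *Socs3* cKO mice (log2(FC) = -2.43, SE = 0.36, adjusted p = 0.0018). *Rora* was at 1.62, 1.24, 0.651 and 1.29 FPKM in the wild type mice and at 6.00, 19.6, 8.29 and 14 FPKM in the *Socs3* cKO mice (log2(FC) = 3.13, SE = 0.40, adjusted p = 0.00095). *Rora* and *Nfil3* encode an activator and a repressor that act on clock promoters, and they moved in opposite directions, while *Arntl*, the core activator gene, was at 0.09. *Nr1d2* (1.51), *Gm129* (1.5) and *Clock* (1.41) rose, and 7 clock genes rose with the length and GC trend removed.

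Lysosome genes were rarely called, with *Ctss* (1.40) and *Lamp2* (1.09) up of 32 and *Lamp1* at -0.49, and the 2 became 1 without *Socs3* cKO 1, 5 without *Socs3* cKO 2, 1 without *Socs3* cKO 3, 0 without wild type 1, 0 without wild type 2 and 1 without wild type 4. In prostaglandin metabolism 5 of 20 rose and *Pla2g4b* (-1.94) fell, with *Ptgs1* at 0.96. *Pla2g5* was at 3.82, 3.53, 3.81 and 3.15 FPKM in the wild type mice and at 11.2, 14.2, 28.3 and 21.5 FPKM in the *Socs3* cKO mice (log2(FC) = 2.27, SE = 0.28, adjusted p = 0.00075). *Pla2g5* is a secreted phospholipase A2, and *Pla2g16* (1.85), a phospholipase of fat cells, and *Hpgd* (1.39), which inactivates prostaglandins, rose with it. The 5 became 3 without any 1 of the 4 wild type mice, and the 1 that fell became 2 without *Socs3* cKO 1, 2 without *Socs3* cKO 2, 0 without *Socs3* cKO 3 and 0 without any 1 of the 4 wild type mice. Removing the length and GC trend gave 8 prostaglandin genes up-regulated and 0 down-regulated.

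Outside the lists, the genes with the largest falls were mostly hair genes whose symbols do not say so. *Vsig8* was at 49.5, 38.3, 38.3 and 66.8 FPKM in the wild type mice and at 0.306, 0.272, 0.543 and 0.186 FPKM in the *Socs3* cKO mice (log2(FC) = -6.85, SE = 0.29, adjusted p = 1.1e-05). *Vsig8* encodes a membrane protein of the hair and nail, and the lowest values overall were in *Gm11937* (log2(FC) = -8.04), *5430421N21Rik* (-7.64) and *Gm11938* (-7.42). In RefSeq (GRCm38.p6) the symbol *5430421N21Rik* is an older name of the hair keratins Krt83 and Krt86, and *Gm11937*, *Gm11938*, *Gm10229* (-6.65) and *Gm11565* (-6.36) lie among keratin-associated protein genes of hair, so these belong to the hair genes left aside. *Gm3238* (-6.34) and the lysozyme relative *Lyg2* (-6.22) completed the 8 lowest. *Skint11* was at 0.860, 0.859, 0.830 and 1.01 FPKM in the wild type mice and at 21.5, 11.3, 15.8 and 18.7 FPKM in the *Socs3* cKO mice (log2(FC) = 4.06, SE = 0.22, adjusted p = 2.5e-05). Skint genes are named for their part in selecting epidermal T cells. *Aqp2* was at 0.0569, 0, 0.242 and 0.118 FPKM in the wild type mice and at 1.16, 4.54, 10.6 and 9.29 FPKM in the *Socs3* cKO mice (log2(FC) = 4.73, SE = 0.69, adjusted p = 0.0017). *Ear5* was at 5.59, 4.08, 7.30 and 8.77 FPKM in the wild type mice and at 80.6, 83.5, 66.3 and 157 FPKM in the *Socs3* cKO mice (log2(FC) = 3.86, SE = 0.32, adjusted p = 0.00012). *Ear5* and *Ear11* (3.22) are ribonuclease genes of eosinophils and macrophages in a family of related copies. No 50-base stretch of either was found in another annotated protein-coding gene. The other high values were in the secreted androgen-binding protein gene *Abpa* (6.70), *2300005B03Rik* (4.04), now named Slurp2, the muscle gene *Myoz2* (3.68) and the betaine methyltransferase gene *Bhmt* (3.25).

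Many of these changes differed from those at 10 weeks, by the genotype by age interaction over the 15 mice. Of 13937 genes 2583 (18.5%) had a log2(FC) higher at 10 weeks than at 2 weeks and 983 (7.05%) one that was lower. The 2 changes do not share control mice, but the interaction uses the 2-week mice again, so for groups described by their 2-week change these counts favour a difference and are given as a description. Groups that were higher in cKO mice at 2 weeks had lower differences at 10 weeks: 68 of 79 ribosomal, 29 of 36 complex I, 26 of 39 skeletal muscle, 13 of 18 Lce and 7 of 17 acute phase genes. Serpinb genes passed this test in 2 of 18 and barrier lipid genes in 2 of 25. Groups that were lower in cKO mice at 2 weeks had higher differences at 10 weeks, with 20 of 27 follicle matrix regulators, 13 of 20 imprinted genes, 13 of 21 collagens, 12 of 15 basement membrane genes and 24 of 42 chromatin regulators. The 10-week wild type libraries also differed from the 2-week ones, with GC-richest medians of -0.73, -0.58 and -0.71. In wild type mice ribosomal list means were 9.10 at 2 weeks and 10.37 at 10 weeks, and collagen means 6.63 and 4.51. Such shifts in wild type mice enter these interactions, and their source was not tested. Counts for these lists with the length and GC trend removed are not given.

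Among signalling genes the gp130 list (12 of 32) and the EGF receptor list (7 of 10) had differences that were higher at 10 weeks. *Socs3* was at 2.76, 4.81 and 2.02 FPKM in 10-week wild type and 36.5, 29.8, 47.7 and 32.4 FPKM in 10-week cKO mice, an interaction of 4.60. *Areg* was at 0.488, 0.213 and 0.494 and 3.41, 3.31, 5.64 and 2.49 FPKM, an interaction of 5.30. The interaction was 5.75 for *Nfil3*, 7.58 for *Adamts4* and 4.74 for *Clcf1*. *Areg*, *Nfil3*, *Adamts4* and *Clcf1* fell at 2 weeks, and their 10-week cKO means lay above the 10-week wild type means. For *Serpinb2*, *Il1f8*, *Ereg*, *Cd207*, *Rora*, *Dsc1* and *Lipn* the interaction did not pass the threshold, so a difference between ages was not shown. Without the length and GC trend, the counts became 1365 for the genotype by age interaction, change higher at 10 weeks, and 1895 for the genotype by age interaction, change lower at 10 weeks. The plot of list means shows the 4 groups side by side.

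**Figure D5:**
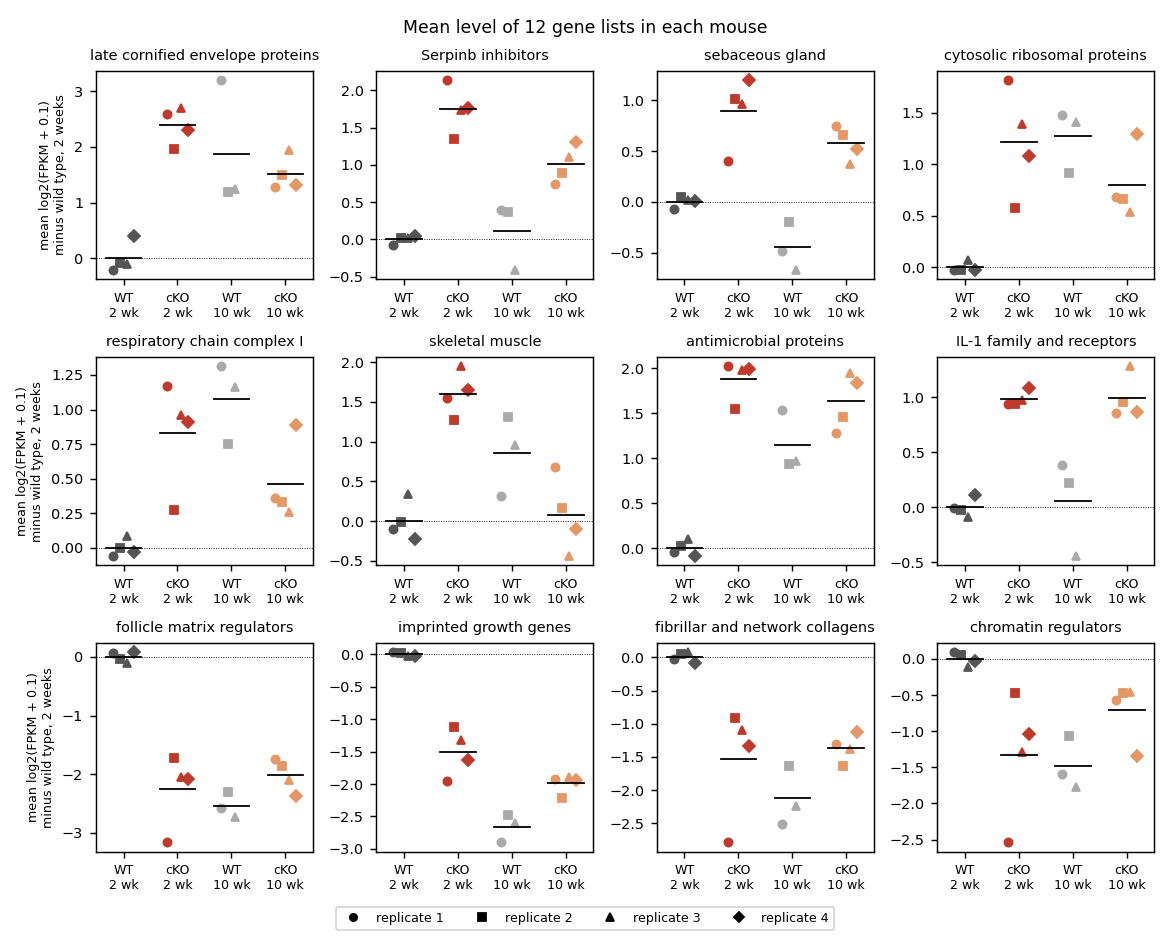
Mean log2(FPKM + 0.1) over the tested genes of 12 lists in each mouse (points) with group means (bars), less the mean of the 2-week wild type mice (dotted line). The 2-week genotypes are apart in each panel, and *Socs3* cKO 1 is the lowest for follicle matrix, imprinted, collagen and chromatin genes.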

How the data were processed

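Total RNA from ear samples of C57BL/6 mice was extracted with TRIzol, made into TruSeq v2 libraries and sequenced as single 50-base reads on an Illumina HiSeq. Per the submitters' processing notes, TopHat2 2.1.0, Cufflinks and mouse build mm9 were used, and the authors deposited 1 table of FPKM per sample. Read counts and depth are unknown, so precision rests on the spread between mice, and the edgeR test of the study was not repeated. The study describes more wild type mice than the 4 at 2 weeks and 3 at 10 weeks used here, and the others were not analysed here. Nothing in the labels says that replicates came from separate litters, so p-values measure the spread between these samples.

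Groups came from the labels. Values were compared as log2(FPKM + 0.1) with limma 3.58.1 in R 4.3.3 (trend in the prior variance, Benjamini-Hochberg adjustment, 2-sided), for genes with at least 1 FPKM in at least 3 samples. log2(FC) on this scale understates changes of low genes. A gene low in 1 group could pass the filter through the other group alone, which favours large differences among such genes. The interaction with age used all 15 mice and an adjusted p below 0.01. An exact permutation test over 4 against 4 mice could not give a p below 0.0286. Scripts were tested on simulated data. Lists (71, with 1907 genes in the files and 35 symbols not found) were described by counts and medians with no test of a list. The members and lists were chosen with earlier results of these data known. Named were *Socs3*, the first gene of each list, up to 3 of its called genes with the largest change, and the 8 highest and 8 lowest called genes outside the lists, hair keratins, S100 genes and small RNAs. These called genes were taken only where the 2 genotypes did not overlap, so their separation is no further evidence. A few genes that this rule names are not reported here. Other genes named were chosen after their values were seen. Transcript length and GC content came from GENCODE vM1 (mm9), with values for 13037 of the tested genes (96.4%). For the fits with the trend removed, each mouse's dependence on both was subtracted. RefSeq promoters were matched by symbol, for 16 Serpinb genes. No pair of 2-week files held identical data. Alternatives were the pseudocount, the filter, the scaling, a replicate block, all groups in 1 fit, a constant prior, the trend removal and leaving out each mouse. Tables were read with Python 3.11.15, numpy 2.4.6 and pandas 2.3.3, and plots drawn with matplotlib 3.10.9.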

Additional observations from a re-analysis of the deposited data

Results flagged for a closer look

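In 19 of 250 groups of 4 mice the highest or lowest mouse lay apart from the other 3 by Dixon's test at the 95% level, which chance gives in about 1 in 20 groups. For mean log2(FPKM + 0.1) of lists these mice were at 9.17 for cytosolic ribosomal proteins in wild type 3, 7.22 for respiratory chain complexes II to IV in *Socs3* cKO 2, 7.77 for ATP synthase in *Socs3* cKO 2, 5.64 for oxidative stress response in wild type 3, 1.95 for small proline-rich proteins in wild type 4, 4.5 for antimicrobial proteins in *Socs3* cKO 2, 1.07 for Wnt and Frizzled genes in *Socs3* cKO 1, 0.99 for Notch genes in *Socs3* cKO 1 and 5.75 for heat shock proteins in wild type 1. For single genes they were at these FPKM: 9.71 for *Socs3* in wild type 1, 13.3 for *Serpinb7* in wild type 4, 11.4 for *Lipn* in *Socs3* cKO 2, 0.718 for *Cyp2j12* in wild type 2, 3.39 for *Ckmt2* in wild type 3, 193 for *Hba-a1* in wild type 4, 0.370 for *Slc4a1* in *Socs3* cKO 3, 29.3 for *Retn* in *Socs3* cKO 4, 66.9 for *Meg3* in *Socs3* cKO 2 and 1.01 for *Skint11* in wild type 4. Of the mice so singled out in cKO groups, *Socs3* cKO 2 was the most frequent.

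For 46 of the 54 genes with values given for every mouse, the change with genotype differed between ages by the interaction test (limma, adjusted p below 0.01). Most of these genes were named for a large change at 2 weeks, and the interaction uses the same 2-week mice, so this number favours a difference and says nothing of how common one is. Values are the log2(FC) at 10 weeks minus that at 2 weeks. It was positive for 21 genes, *Vsig8* (8.05), *Adamts4* (7.58), *Nfil3* (5.75), *Dio3* (5.54), *Areg* (5.30), *Stfa3* (4.97), *Cntfr* (4.80), *Kdm6b* (4.77), *Clcf1* (4.74), *Socs3* (4.60), *Col2a1* (4.24), *Dlk1* (4.22), *Dsg4* (4.21), *Hoxc13* (3.88), *Gclc* (3.85), *Lef1* (3.83), *Col1a1* (3.76), *Meg3* (2.84), *Sprr1a* (2.80), *Foxm1* (2.48) and *Slc4a1* (2.35). It was negative for 25 genes, *Aqp2* (-5.93), *Hba-a1* (-5.59), *Ckmt2* (-4.94), *Cox8b* (-4.57), *Azgp1* (-4.14), *Skint11* (-3.87), *Ucma* (-3.79), *A2m* (-2.98), *Wif1* (-2.95), *Retn* (-2.94), *Ear5* (-2.82), *Serpinb7* (-2.79), *Lce1a1* (-2.57), *Frzb* (-2.53), *Il33* (-2.48), *Csta* (-2.35), *Ndufa4* (-2.33), *Lcn2* (-2.22), *Rps25* (-1.89), *Scd1* (-1.88), *Pla2g5* (-1.78), *Flg2* (-1.44), *Cyp2j12* (-1.39), *Sc4mol* (-1.35) and *Nqo1* (-1.26).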

How the results depend on the processing

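The number of DEGs at 2 weeks, 1951, became 3297 with all 4 groups in 1 fit and 859 to 3348 when 1 mouse was left out. Up-regulated DEGs at 2 weeks, 979, became 1474 after quantile normalization and 491 to 1463 without 1 mouse. Down-regulated DEGs at 2 weeks, 972, became 2163 with all 4 groups in 1 fit and 363 to 1885 without 1 mouse. With the replicate number as a block there were 751 DEGs (400 up, 351 down), 750 of them shared with the 1951. Same-numbered mice of the 2 genotypes correlated at -0.04 to 0.14 in their deviations from group means and the other pairs at -0.14 to 0.08, and not every mouse correlated best with its own number, so replicate numbers were taken not to pair mice and the block stands as an alternative. With the length and GC trend removed there were 1680, of which 1034 were shared. For the genotype by age interaction, 3566 genes became 1994 to 5117 without 1 mouse. For the genotype by age interaction, change higher at 10 weeks, 2583 became 1365 with the trend removed and 1416 to 3731 without 1 mouse. For the genotype by age interaction, change lower at 10 weeks, 983 became 1649 without an expression filter, 1743 after median-of-ratios scaling, 2337 after quantile normalization, 1895 with the trend removed and 519 to 1386 without 1 mouse. The log2(FC) of *Socs3* at 2 weeks was 0.080 with the trend removed and -1.52 to -0.44 without 1 mouse. Of 235 named results, 162 kept their direction and side of the threshold with the trend removed, 138 with the block and 138 to 227 without 1 mouse.

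Signs turned only for genes that had not been called. Besides *Socs3*, with the trend removed these were *Atf4* (0.33), *Atp5a1* (0.31), *Cs* (0.12), *Eln* (0.61), *Gstp1* (-0.17), *Itgb4* (0.55), *Mki67* (0.0069), *Pecam1* (0.32) and *Slc2a1* (0.60). After quantile normalization they were *Acta1* (-0.28), *Cd3e* (0.18), *Gstp1* (-0.075), *Mmp2* (-0.20), *Rplp0* (-0.11), *Sdha* (-0.052) and *Slc2a1* (0.056), and after median-of-ratios scaling *Atf4* (0.16), *Cs* (0.066), *Lox* (0.16), *Pecam1* (0.12), *Slc2a1* (0.029) and *Trp63* (0.15). Without 1 mouse *Acta1* ranged over -0.070 to 0.65, *Arntl* -0.10 to 0.28, *Atf4* -0.058 to 0.065, *Atp5a1* -0.54 to 0.0070, *Cs* -0.26 to 0.15, *Il6st* -0.26 to 0.30, *Lox* -0.14 to 0.085, *Slc2a1* -0.36 to 0.14 and *Trp63* -0.20 to 0.094. The cause was not tested. Depth is unknown, and the lowest levels carry the least precision.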
